A study of Mus musculus with 150 samples.

Results

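Mitotic genes encode the machinery that takes a cell through division. Here 35 of them were followed in mouse lung epithelial cells labelled p53 knockout or wild type. They were chosen by name for their roles in mitosis and not by a measured value, though with earlier results of these data known. All 35 had a row among the 24341 of the bulk RNA-seq table and among the 31175 genes of both single-cell tables. By role they comprised 5 genes of the CDK1 switch, 5 other mitotic kinases, 6 genes of the spindle checkpoint and the anaphase-promoting complex, 3 of the chromosomal passenger complex, 3 of the centromere and kinetochore, 5 kinesins, 4 spindle-binding proteins, 2 cytokinesis genes and 2 chromosome proteins.

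Cyclin-dependent kinase 1 (CDK1), bound to cyclin A or B, starts mitosis. Aurora and polo-like kinases then build the spindle, a checkpoint holds chromosome separation until every kinetochore is attached, and the anaphase-promoting complex destroys cyclin B and securin to let the cell exit. Most of these genes are transcribed late in the cell cycle and are nearly silent in resting cells. Club cells of the airway and alveolar type 2 cells rarely divide in the healthy adult lung and act as progenitors after injury. p53 is known to lower the transcription of many mitotic genes through the CDK inhibitor encoded by Cdkn1a and the DREAM repressor complex. DREAM binds a promoter element called the CHR, often near CCAAT boxes that bind the activator NF-Y.

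The bulk set held 3 knockout libraries (replicates 7, 8 and 10) and 3 wild-type libraries (replicates 1, 5 and 6). The deposited column names of all but wild-type replicate 6 carry the prefix "second". What it stands for was not determined here, and it was not modelled. Knockout mice were Scgb1a1-CreERTM; Rosa26-mT/mG; p53flox/flox, with the genotype label p53-/-, and wild-type mice carried p53+/+ beside the same Cre and reporter. The mice were 8 to 12 weeks old and both genotypes received tamoxifen. The titles name day 30 while the protocol puts the sort at 70 days after the drug. Live cells (7AAD-) that were GFP+, EpCAM+ and CD31/34/45- were sorted. The labels do not tie libraries to animals, and a p-value below therefore covers the spread among libraries, whether technical or biological. Cre was driven from the Scgb1a1 gene of club cells, so the reporter marks cells that used that gene when tamoxifen was given, and their progeny. The single-cell set came from 1 Fluidigm C1 chip for each genotype, a device that captures cells in separate wells. After quality filters 61 cells were kept from the knockout chip and 66 from the wild-type chip. The labels name p53flox, p53-/- and Super p53 crosses for those experiments and a tamoxifen dose of 250 mg/kg for RNA-seq, without saying which cross the knockout chip came from or whether cells were cultured before capture.

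In bulk the libraries of the genotypes did not overlap for the targeted gene: Trp53 had 8.63, 9.98 and 7.56 FPKM (fragments per kilobase, scaled to the library's mapped fragments) in knockout libraries, against 16.6, 22.2 and 21.7 FPKM in wild-type libraries (log2 difference -1.12, limma adjusted p = 0.144). On the chips it went against the labels, with a TPM (a transcript share scaled to a fixed total per cell) of at least 1 in 16 of 61 cells labelled knockout and in 4 of 66 wild-type cells. No direction between the chips is therefore tied to the loss of p53 here. Wild-type replicate 1 stood apart in bulk. Its summed club marker level was 17513 FPKM, against 40856 to 69887 FPKM in the other libraries. Its summed alveolar type 2 marker level was 12182 FPKM, against 6394 to 8176 FPKM. The club sum holds 7 of 9 listed markers and lacks Scgb1a1 and Cyp2f2. The alveolar type 2 sum holds 8 of 11 and lacks Sftpc, Sftpa1 and Lyz2. Basal cell markers summed to at most 0.611 FPKM in any library. Neither unit carries read counts, so the depth behind each value is unknown.

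The promoters of the mitotic genes share sequence features that the choice of members did not use. The windows of Cdk1 and Top2a are shown because they hold both the CHR and the CCAAT box, and those of Ccnb1 and Nek2 because these were the members of smallest p between genotypes in bulk. Each is the 250 bases upstream of a RefSeq transcription start on GRCm38.p6, written 5′ to 3′ on the gene's strand, with matches to CCAAT (or ATTGG, its reverse complement) and to the CHR letters TTTGAA (or TTCAAA) in capitals. The Cdk1 window lies at chr10:69352913-69353162 (minus strand), Top2a at chr11:99024190-99024439 (minus), Ccnb1 at chr13:100786487-100786736 (minus) and Nek2 at chr1:191821223-191821472 (plus).
Cdk1: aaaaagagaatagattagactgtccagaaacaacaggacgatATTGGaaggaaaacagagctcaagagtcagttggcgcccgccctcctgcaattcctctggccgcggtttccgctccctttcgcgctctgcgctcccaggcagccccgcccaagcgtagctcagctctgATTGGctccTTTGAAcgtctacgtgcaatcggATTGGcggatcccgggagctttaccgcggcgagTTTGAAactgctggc
Top2a: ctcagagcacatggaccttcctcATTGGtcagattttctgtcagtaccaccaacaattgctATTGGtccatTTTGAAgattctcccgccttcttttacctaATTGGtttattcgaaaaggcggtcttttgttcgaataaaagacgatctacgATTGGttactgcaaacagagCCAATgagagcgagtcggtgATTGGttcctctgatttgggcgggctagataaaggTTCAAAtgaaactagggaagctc
Ccnb1: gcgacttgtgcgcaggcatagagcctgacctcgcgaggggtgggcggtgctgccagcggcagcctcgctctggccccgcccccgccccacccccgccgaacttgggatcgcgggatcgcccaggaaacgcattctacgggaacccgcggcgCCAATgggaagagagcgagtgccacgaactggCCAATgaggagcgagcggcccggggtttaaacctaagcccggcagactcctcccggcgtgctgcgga
Nek2: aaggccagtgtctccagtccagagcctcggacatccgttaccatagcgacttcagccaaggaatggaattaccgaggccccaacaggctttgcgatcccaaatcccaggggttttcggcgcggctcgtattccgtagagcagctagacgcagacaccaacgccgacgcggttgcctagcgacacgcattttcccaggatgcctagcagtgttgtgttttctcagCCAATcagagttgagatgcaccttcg

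The Cdk1 window held 2 CHR and 3 CCAAT matches and the Top2a window held 2 and 6. The Ccnb1 window held 0 TTTGAA and 2 CCAAT matches, and the Nek2 window held 0 and 1. A promoter entry was matched for 30 of the 35 members (33 windows). CCAAT was present in at least one window of 25 of these 30 members (83.3%), against 37.5% of the 27025 genes in the same collection. TTTGAA was present for 11 of 30 members (36.7%), against 18.3% of genes, and both motifs for 10 of 30 (33.3%), against 6.45% of genes. A match is a description of letters in this window and shows no binding of a factor. Only these exact letters upstream of the start were searched, so a count of 0 does not show that an element is absent.

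**Figure D1:**
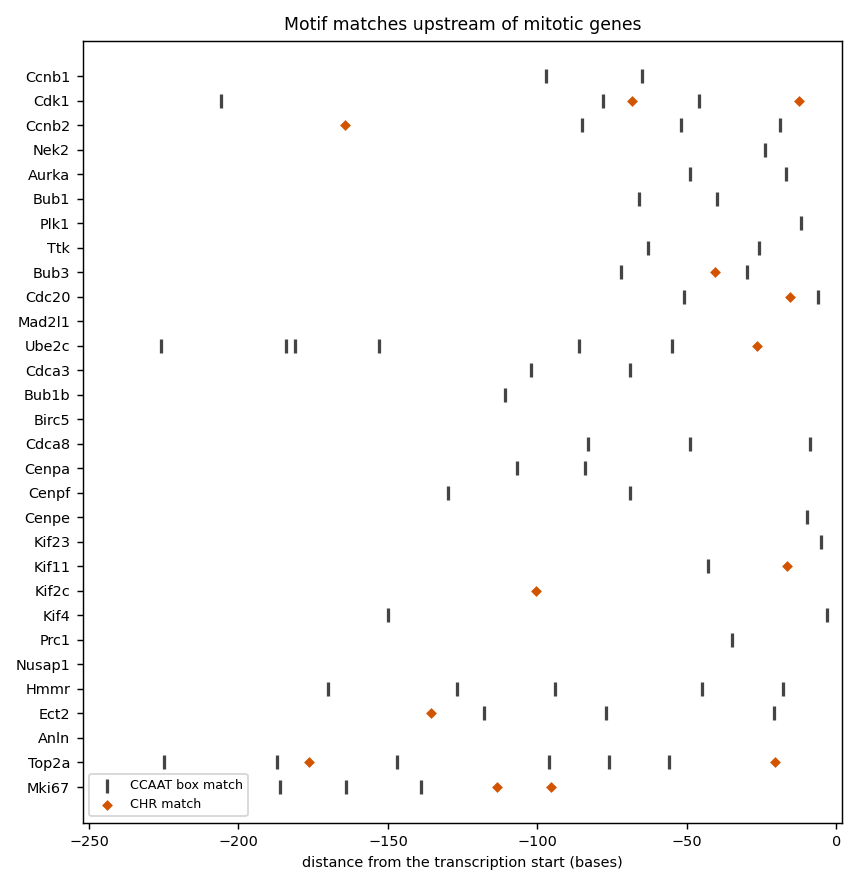
Positions of motif matches in the 250 bases upstream of the transcription start (horizontal axis, in bases; 1 row per member with a RefSeq entry, and 1 window per gene, the one of lower coordinate where there are several). Grey ticks are CCAAT matches on either strand and orange diamonds are CHR matches; ticks appear for 25 of 30 members and diamonds for 10, and Prc1 has its CHR match in a window not drawn.

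In bulk the mitotic genes were low in both genotypes, and none passed the test between them. The median member had 1.30, 1.17 and 2.07 FPKM in knockout replicates 7, 8 and 10, and 0.643, 1.41 and 1.35 FPKM in wild-type replicates 1, 5 and 6. An FPKM of at least 1 was reached by 19, 20 and 25 members in those knockout libraries, against 12, 22 and 22 members in those wild-type libraries. The summed level of the 35 was 110.6, 94.2 and 125.8 FPKM in knockout libraries, against 76.9, 102.3 and 100.9 FPKM in wild-type libraries. The genotypes overlapped in all of these measures. Knockout replicate 10 held the highest value for 21 of the 35 members, and wild-type replicate 1 held the lowest for 24. In sorted bulk cells, fewer dividing cells and less mitotic RNA per cell cannot be told apart.

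Of the 35 members, 22 passed the filter on low values (3 or more of the 6 libraries at an FPKM of 1 or higher) and were tested with the whole table, on log2(FPKM + 1) with limma and Benjamini-Hochberg adjustment. On this scale the change of a gene near or below 1 FPKM is understated. With limma, 0 of the 22 reached an adjusted p of 0.05, where 0.00836% of all 11957 tested genes did. At an unadjusted p of 0.05, 1 member was higher in knockout libraries (Nek2) and 0 were lower, against 7.04% of all tested genes higher and 6.06% lower. Libraries of the genotypes did not overlap for 1 member, higher in knockout (Ccnb1), where 9.04% of all tested genes were higher without overlap. No tested member lay wholly lower in knockout, where 10.2% of all tested genes did.

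The sign of the differences leaned one way and rested largely on 1 library. A positive difference, higher in knockout, was found for 18 of 22 tested members (81.8%), against 51.5% of all tested genes, with a median log2 difference of 0.24 against 0.0078. Without wild-type replicate 1, 12 of 22 were positive with a median of 0.03. With limma's library weights, 10 of 22 were positive with a median of -0.02. The 4 negative members were Bub1, Kif23, Bub1b and Mad2l1.

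Among the genes of the CDK1 switch, the cyclin B1 gene Ccnb1 (chromosome 13, 100778739 to 100786486 on mm10) had 2.86, 2.32 and 3.47 FPKM in knockout libraries, against 0.819, 2.28 and 1.97 FPKM in wild-type libraries. The 3 knockout values lay above the 3 wild-type values, but knockout replicate 8 exceeded wild-type replicate 5 by little. The log2 difference was 0.57 ± 0.25 (SE, n = 3 each; limma adjusted p = 0.393), and 0.31 without wild-type replicate 1. An exact two-sided permutation test gave p = 0.1, the smallest that 3 against 3 allows. Ccna2, for cyclin A2 and the most abundant of this group, had 3.63, 2.29 and 3.06 FPKM in knockout libraries, against 1.91, 3.23 and 2.90 FPKM in wild-type libraries. Its genotypes overlapped, and its log2 difference of 0.12 turned to -0.04 without wild-type replicate 1. Cdk1 itself averaged 2.10 ± 0.779 FPKM in knockout libraries and 1.57 ± 0.698 FPKM in wild-type libraries (SD, n = 3 each), and Ccnb2, for cyclin B2, averaged 1.88 ± 0.804 FPKM in knockout libraries and 1.39 ± 0.677 FPKM in wild-type libraries. Cdc25c, the phosphatase that activates CDK1, stayed between 0.0128 and 0.988 FPKM and was not tested.

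Of the other mitotic kinases, Nek2, which separates the centrosomes, had the smallest p among the members. Nek2 (chromosome 1, 191821473 to 191833049) had 6.66, 6.69 and 4.70 FPKM in knockout libraries, against 4.80, 2.54 and 2.00 FPKM in wild-type libraries. Knockout replicates 7 and 8 were the highest, and wild-type replicate 1 exceeded knockout replicate 10. The log2 difference was 0.82 ± 0.26 (SE, n = 3 each; limma unadjusted p = 0.0177, adjusted p = 0.324). Without wild-type replicate 1 it was 1.09, with a limma adjusted p of 0.0235, in a fit that called 408 genes instead of 1. The 4 libraries with the most Nek2 held the most ciliated cell marker RNA in the same order: the 16 ciliated markers summed to 887, 1200 and 709 FPKM in knockout libraries, against 742, 220 and 221 FPKM in wild-type libraries. All 16 markers were higher in knockout by sign, 6 of them without overlap, where 9.04% of all tested genes were higher without overlap. Their part in the Nek2 difference was not tested.

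Aurka, the Aurora A kinase of the spindle poles, had 2.52, 1.52 and 2.67 FPKM in knockout libraries, against 1.26, 1.802 and 1.35 FPKM in wild-type libraries. Of the wild-type libraries only replicate 5 lay above the lowest knockout library (log2 difference 0.38, limma adjusted p = 0.439). Bub1, a kinase of the checkpoint, ran the other way, with 0.462, 0.830 and 1.40 FPKM in knockout libraries, against 3.29, 1.09 and 0.909 FPKM in wild-type libraries. Its high value was that of wild-type replicate 1, the library that was lowest for most other members. Plk1, the polo-like kinase, averaged 1.25 ± 0.398 FPKM in knockout libraries and 1.17 ± 0.457 FPKM in wild-type libraries. Ttk, which recruits checkpoint proteins to kinetochores, was between 0.0265 and 0.694 FPKM.

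The checkpoint group held the most abundant member. Bub3, which binds both checkpoint kinases at kinetochores, had 44.7, 45.2 and 48.5 FPKM in knockout libraries, against 36.1, 41.9 and 45.1 FPKM in wild-type libraries. Its spread was small, and knockout replicate 7 lay below wild-type replicate 6 (log2 difference 0.17, limma adjusted p = 0.554), and without wild-type replicate 1 the difference was 0.08. Bub3 alone made up much of the summed level: without it the other members summed to 65.97, 49.02 and 77.3 FPKM in knockout libraries, against 40.9, 60.4 and 55.7 FPKM in wild-type libraries. Cdc20, the activator of the anaphase-promoting complex, had 6.18, 5.62 and 9.39 FPKM in knockout libraries, against 4.39, 4.82 and 6.56 FPKM in wild-type libraries. Wild-type replicate 6 exceeded knockout replicates 7 and 8 (log2 difference 0.35, limma adjusted p = 0.517), and without knockout replicate 10 the difference was 0.16.

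Ube2c, the ubiquitin-conjugating enzyme that serves the same complex, had 5.03, 3.00 and 4.93 FPKM in knockout libraries, against 1.22, 5.89 and 3.87 FPKM in wild-type libraries. Mad2l1, whose MAD2 protein blocks CDC20, averaged 5.26 ± 1.12 FPKM in knockout libraries and 5.60 ± 0.963 FPKM in wild-type libraries. Cdca3, a substrate of that complex that aids entry into mitosis, averaged 1.82 ± 0.392 FPKM in knockout libraries and 1.48 ± 0.853 FPKM in wild-type libraries. Bub1b, for the BUBR1 checkpoint protein, averaged 1.46 ± 0.555 FPKM in knockout libraries and 1.75 ± 0.733 FPKM in wild-type libraries. None of these separated the genotypes.

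Of the passenger complex, which corrects faulty chromosome attachments, Birc5 (survivin) had 1.98, 1.37 and 3.05 FPKM in knockout libraries, against 0.615, 1.68 and 2.85 FPKM in wild-type libraries. Its log2 difference of 0.26 turned to -0.07 without wild-type replicate 1. Cdca8, for borealin, averaged 1.51 ± 0.704 FPKM in knockout libraries and 1.12 ± 0.527 FPKM in wild-type libraries. Aurkb, the kinase of the complex, lay between 0.467 and 1.42 FPKM and was not tested. Cenpa, the histone H3 variant that marks the centromere, had 0.907, 0.993 and 2.69 FPKM in knockout libraries, against 0.564, 1.06 and 1.35 FPKM in wild-type libraries. The high knockout value was that of replicate 10, without which the log2 difference of 0.30 became -0.01. The kinetochore proteins encoded by Cenpe and Cenpf stayed at or below 0.572 FPKM in all 6 libraries.

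Of the motors, Kif23, a kinesin of the central spindle, was lower in knockout libraries by sign, with 3.11, 2.27 and 2.72 FPKM, against 2.31, 3.81 and 3.48 FPKM in wild-type libraries (log2 difference -0.17, limma adjusted p = 0.738). The difference was -0.33 without wild-type replicate 1, and -0.07 without wild-type replicate 5. Kif20a, which carries the passenger complex to the midzone, averaged 1.44 ± 0.424 FPKM in knockout libraries and 1.28 ± 0.533 FPKM in wild-type libraries. Kif11, which pushes the spindle poles apart, lay between 0.339 and 1.05 FPKM, and Kif2c, which depolymerises microtubules, and the chromokinesin Kif4 lay at or below 0.755 FPKM. Prc1, which bundles midzone microtubules, had 2.82, 1.62 and 2.39 FPKM in knockout libraries, against 1.88, 2.38 and 1.78 FPKM in wild-type libraries, with overlap (log2 difference 0.11, and -0.0097 without knockout replicate 7). The spindle proteins Tpx2, Nusap1 and Hmmr ranged from 0.203 to 1.18 FPKM over all libraries.

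The cytokinesis gene Ect2, an activator of RhoA at the cleavage furrow, had 3.35, 1.98 and 2.73 FPKM in knockout libraries, against 1.93, 3.02 and 2.42 FPKM in wild-type libraries. Anln, the furrow scaffold anillin, lay between 0.598 and 1.05 FPKM. Top2a, the topoisomerase that untangles sister chromatids, had 2.44, 1.17 and 2.96 FPKM in knockout libraries, against 0.983, 2.12 and 1.91 FPKM in wild-type libraries, and the genotypes overlapped (log2 difference 0.24, limma adjusted p = 0.767). Without wild-type replicate 1 the difference was 0.04, without knockout replicate 10 it was 0.06, and without knockout replicate 8 it was 0.49. Mki67, the proliferation marker that coats mitotic chromosomes, lay between 0.227 and 1.03 FPKM. Exons of 11 members overlap those of a gene on the opposite strand, among them Nek2, Prc1, Cdc20, Ube2c and Ccna2. No strand setting is given in the sources used here, so reads of these pairs cannot be told apart and the 11 are uncertain to that extent.

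**Figure D2:**
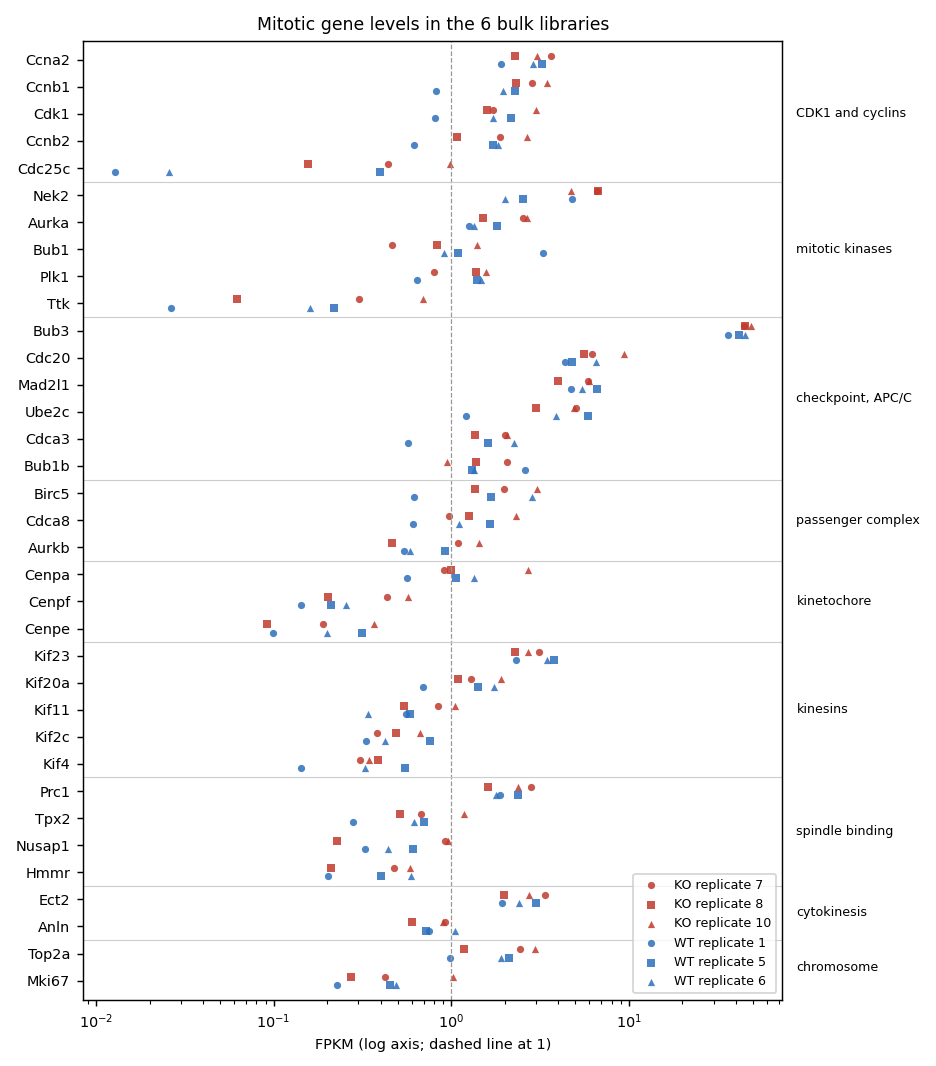
FPKM of each member (log axis, dashed line at 1) in the 6 bulk libraries, grouped by role, with knockout in red above wild type in blue and 1 marker shape per replicate. Bub3 lies at 36.1 to 48.5 FPKM and most other members lie near 1 FPKM, with wild-type replicate 1 (blue circles) lowest for 24 members and knockout replicate 10 (red triangles) highest for 21.

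A wider list of 116 other mitotic genes was set beside the members. It also counts regulators of mitotic gene transcription, 12 of them tested. Of its 67 tested genes, 0 passed the limma threshold, 42 were higher in knockout by sign and the median log2 difference was 0.02. At an unadjusted p of 0.05, 3 were higher and 2 lower in knockout, where 7.04% of all tested genes were higher and 6.06% lower. Without overlap 4 were higher and 4 lower, where 9.04% of all tested genes were higher and 10.2% lower. Wee1, the kinase that holds CDK1 inactive, averaged 15.2 ± 1.64 FPKM in knockout libraries and 10.3 ± 0.768 FPKM in wild-type libraries (limma adjusted p = 0.288). Plk4, which starts centriole duplication, averaged 2.37 ± 0.384 FPKM in knockout libraries and 1.19 ± 0.235 FPKM in wild-type libraries (limma adjusted p = 0.308). Anapc10, a subunit of the anaphase-promoting complex, averaged 6.20 ± 0.858 FPKM in knockout libraries and 4.65 ± 0.378 FPKM in wild-type libraries (limma adjusted p = 0.351). Hmgb2, a chromatin protein, averaged 16.7 ± 1.097 FPKM in knockout libraries and 20.3 ± 0.700 FPKM in wild-type libraries (limma adjusted p = 0.328). Incenp, the scaffold of the passenger complex, averaged 2.20 ± 0.300 FPKM in knockout libraries and 2.99 ± 0.239 FPKM in wild-type libraries (limma adjusted p = 0.375). Cdc25b, a CDK1-activating phosphatase, averaged 10.8 ± 1.48 FPKM in knockout libraries and 13.7 ± 1.89 FPKM in wild-type libraries (limma adjusted p = 0.392). The 6 are those of smallest p in this list, and none passed the threshold. Anapc10, Plk4 and Wee1 lay above and Hmgb2 and Incenp below the wild-type libraries without overlap.

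Markers of other cell types were also compared between the bulk groups. Of the leukocyte, endothelial, fibroblast and alveolar type 2 sums, the leukocyte and alveolar type 2 sums separated the genotypes. Leukocyte markers summed to 224, 139 and 162 FPKM in knockout libraries, against 305, 251 and 282 FPKM in wild-type libraries. By sign 11 of 11 tested markers were lower in knockout, and 10 of the 12 listed lay wholly below, where 10.2% of all tested genes did. Endothelial markers summed to 74.8 to 113 FPKM in knockout libraries and 103 to 134 FPKM in wild-type libraries. Wholly below in knockout lay 5 of the 7 listed, beside the same 10.2% of all tested genes. Of these 7, Pecam1 and Cdh5 were at or below 0.557 FPKM throughout. Kdr had 97.2, 52.03 and 78.6 FPKM in knockout libraries, against 59.5, 73.6 and 73.02 FPKM in wild-type libraries. Esam had 13.8, 19.7 and 11.6 FPKM in knockout libraries, against 65.1, 23.7 and 24.8 FPKM in wild-type libraries. Fibroblast markers summed to 14.0 to 16.8 FPKM in knockout libraries and 6.97 to 41.1 FPKM in wild-type libraries. Alveolar type 2 markers summed to 6476, 6394 and 6741 FPKM in knockout libraries, against 12182, 7171 and 8176 FPKM in wild-type libraries. All 8 tested alveolar type 2 markers were lower in knockout by sign. Wholly below lay 4 of them, beside the same 10.2% of all tested genes. Sftpc itself carried a marked entry in the deposited table and was left out. The part of these cells in the mitotic gene levels was not tested. Cdkn1a, which stands between p53 and CDK1, had 19.6, 21.3 and 18.0 FPKM in knockout libraries, against 37.6, 40.02 and 63.9 FPKM in wild-type libraries (log2 difference -1.18, limma adjusted p = 0.203).

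In single cells few of the mitotic genes were found per cell, except in 2 cells of the knockout chip. A cell is counted here as expressing a member at a TPM of at least 1. Cells of the knockout chip expressed 3.51 ± 5.06 members (SD over 61 cells; median 2, highest 32), and cells of the wild-type chip 2.11 ± 1.65 members (SD over 66 cells; median 2, highest 6). At least 1 member was found in 54 of 61 knockout-chip cells (88.5%, exact 95% interval 77.8 to 95.3%) and in 54 of 66 wild-type cells (81.8%, 70.4 to 90.2%). At least 5 members were found in 13 of 61 knockout-chip cells (21.3%, 11.9 to 33.7%) and 7 of 66 wild-type cells (10.6%, 4.37 to 20.6%). At least 10 were found in 2 of 61 knockout-chip cells (3.28%, 0.400 to 11.3%) and 0 of 66 wild-type cells (0%, 0 to 5.44%). A rule that takes a count of 0 as at most 3 cells of the total would put the limit there at 4.55%, below the exact limit of 5.44%. The intervals cover counting error only, and with 1 chip per genotype there is no replicate and no test. The off-chip negative control expressed 0 members.

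No cell held between 10 and 24 members. Without the 2 highest cells, knockout-chip cells expressed 2.66 ± 1.95 members (highest 9). The gap that remained to the wild-type chip came beside a gap in detection: the median kept cell had 3580 detected genes and 6.28% of its TPM in spike-in RNA on the knockout chip, against 3130.5 genes and 13.2% on the wild-type chip. Over cells, the number of members went with the number of genes found, with Pearson's r of 0.50 over the other 59 knockout-chip cells and 0.65 over 66 wild-type cells, as a description of cells that share a chip. At a TPM of at least 10, the share of cells with at least 1 member was 40.98% on the knockout chip and 28.8% on the wild-type chip.

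**Figure D3:**
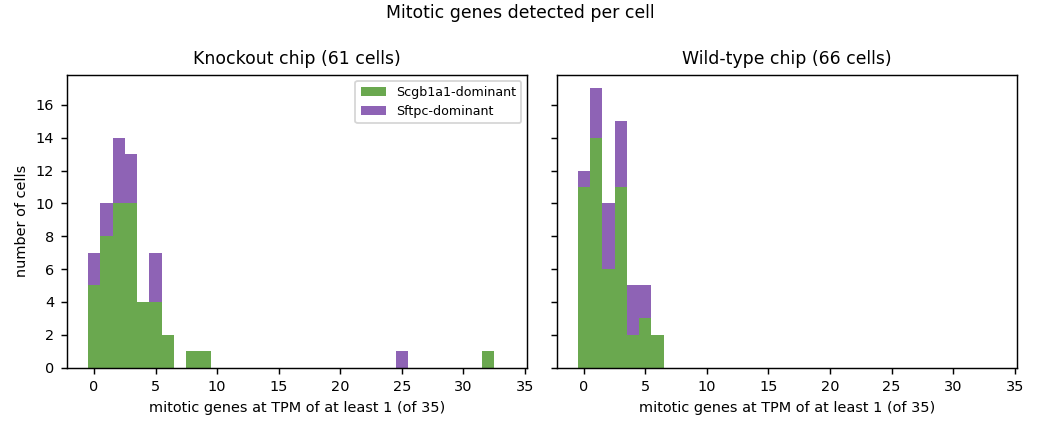
Number of cells (vertical axis) by number of mitotic genes at a TPM of at least 1 (horizontal axis, of 35), for the knockout chip (left, 61 cells) and the wild-type chip (right, 66 cells), with bars split by the dominant transcript. Every wild-type cell lies at 6 members or fewer, and 2 knockout-chip cells lie at 25 and 32.

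Cell state was taken from the dominant secretory transcript: a cell was Scgb1a1-dominant, as club cells are, if its Scgb1a1 TPM exceeded its Sftpc TPM, and otherwise Sftpc-dominant, as alveolar type 2 cells are. Among Scgb1a1-dominant cells, the 46 of the knockout chip expressed a median of 2.5 members and the 49 of the wild-type chip a median of 1. At least 5 members were found in 9 of 46 of those on the knockout chip (19.6%, 9.36 to 33.9%) and 5 of 49 on the wild-type chip (10.2%, 3.40 to 22.2%). Among Sftpc-dominant cells, the 15 of the knockout chip expressed a median of 2 members and the 17 of the wild-type chip a median of 3, with at least 5 members in 4 of 15 on the knockout chip (26.7%, 7.79 to 55.1%) and 2 of 17 on the wild-type chip (11.8%, 1.46 to 36.4%). With TPM rescaled without spike-ins the median of Sftpc-dominant cells was 3 on both chips. Both states held 1 of the 2 high cells. Without these the mean was 2.73 members on the knockout chip and 1.92 on the wild-type chip among Scgb1a1-dominant cells, and 2.43 on the knockout chip and 2.65 on the wild-type chip among Sftpc-dominant cells. A difference between the states was not tested, and the intervals of the chips overlapped in both.

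Other splits of the cells cross the mitotic genes. Cells with both Scgb1a1 and Sftpc at 1000 TPM or more numbered 34 on the knockout chip and 26 on the wild-type chip, and expressed 2.68 ± 1.77 members on the knockout chip and 2.58 ± 1.77 on the wild-type chip (SD over cells). Cells with transcript of Pcna, the replication clamp, at a TPM of at least 1 numbered 35 of 61 on the knockout chip and 22 of 66 on the wild-type chip. Pcna-positive cells expressed 4.29 ± 6.49 members on the knockout chip, or 2.82 ± 2.26 over the 33 left without the 2 high cells, and 2.45 ± 1.87 on the wild-type chip. Cells below that Pcna level expressed 2.46 ± 1.503 members on the knockout chip and 1.93 ± 1.52 on the wild-type chip. Both high cells were Pcna-positive and neither had both secretory transcripts at 1000 TPM.

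The titles of the high cells carry neighbouring well positions, D2 and D1, by which they are named here. The D2 cell was Scgb1a1-dominant, with 139970 TPM of Scgb1a1 and 14.4 TPM of Sftpc. It expressed 32 of the 35 members, 30 of them at 10 TPM or more, for a summed 6022 TPM. The D1 cell was Sftpc-dominant, with 272615 TPM of Sftpc and 543 TPM of Scgb1a1, and expressed 25 members, 22 of them at 10 TPM or more, for a summed 3090 TPM. The next highest sum in any cell was 542 TPM. The pair held 69.4% of all member TPM on the knockout chip: its mean member sum was 215 TPM with them and 68.1 TPM without them, against 34.7 TPM on the wild-type chip.

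Both high cells expressed genes of every role. Cdk1 was at 282 TPM in D2 and 217 TPM in D1, Ccnb1 at 223 and 59.8 TPM, Ccnb2 at 96.7 and 184 TPM, and Top2a at 384 and 102 TPM. The centromere histone Cenpa was at 254 and 188 TPM in D2 and D1, and at 0 TPM in every other kept cell. Cenpe, the kinetochore kinesin, was at 54.7 and 30.6 TPM in the pair and likewise at 0 TPM elsewhere. All 3 passenger complex genes were found in both, with Birc5 at 854 and 7.98 TPM and Cdca8 at 44.7 and 708 TPM. All 4 spindle-binding genes were found in both, with Prc1 at 610 and 63.1 TPM and Tpx2 at 36.5 and 240 TPM. Mki67 stood at 150 and 78.7 TPM, where no other cell exceeded 5.81 TPM.

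The pair differed in several members. D2 held all 5 kinases outside the CDK family, with Plk1 at 226 TPM, Aurka at 153 TPM and Nek2 at 138 TPM, whereas D1 had 0 TPM of Plk1 and Aurka and 6.97 TPM of Nek2. Ccna2 was at 307 TPM in D2 and 0 in D1, and Ube2c at 400 and 20.5 TPM. Neither cell reached a TPM of 1 for Cdc20, which opens anaphase, for Cdc25c or for Kif2c. Of the 35 members 25 were found in both cells, 32 in at least one, and 29 had their highest value over all kept cells in one of the pair. The exceptions among found members were Cdk1, Kif23 and Bub3, with higher values elsewhere, and Bub1b, whose highest value of 160 TPM was in a wild-type cell. In the wider list, which includes transcription regulators, 81 of the 116 genes were at a TPM of at least 1 in D2 and 69 in D1, against at most 31 in any other cell.

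The high cells also had many genes detected, 5375 in D2 and 5146 in D1. They ranked 2 and 4 among the 61 knockout-chip cells by genes detected, and the cells ranked 1 and 3 expressed at most 6 members. D2 had 9 of 9 club markers at a TPM of at least 1, 4 of 11 alveolar type 2 markers, 2 of 16 ciliated, 1 of 12 leukocyte, 0 of 7 endothelial, 0 of 8 fibroblast and 0 of 4 basal markers. D1 had 11 of 11 alveolar type 2 markers, 5 of 9 club, 2 of 16 ciliated, 1 of 12 leukocyte, 1 of 7 endothelial, 0 of 8 fibroblast and 0 of 4 basal markers. Cdkn1a was at 208 TPM in D2 and 450 TPM in D1, and Trp53 at 7.50 and 17.8 TPM, although both wells carry the knockout label. Over all kept cells Cdkn1a reached a TPM of 1 in 19 of 61 knockout-chip and 31 of 66 wild-type cells. Over all genes seen, log2(TPM + 1) of the pair correlated at r = 0.49, close to the median of 0.48 for pairs of other knockout-chip cells.

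**Figure D4:**
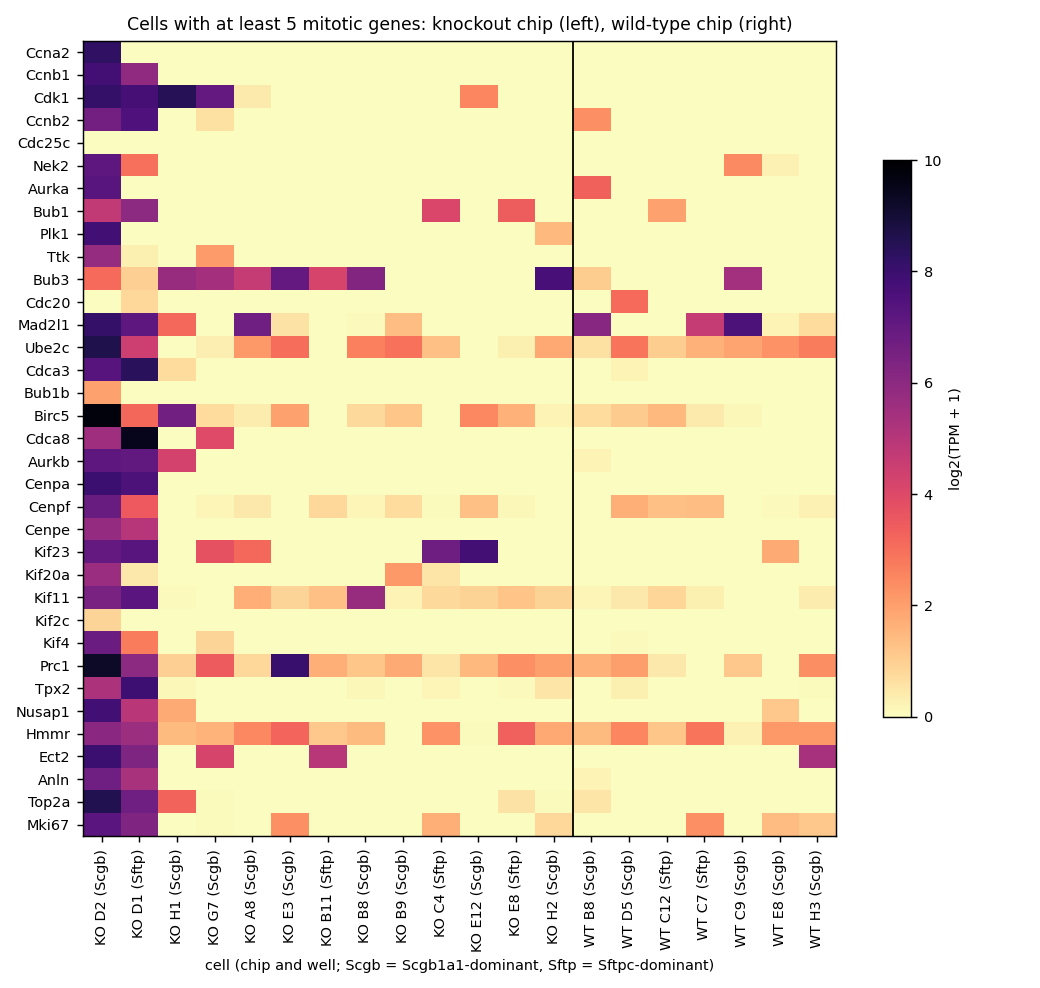
log2(TPM + 1) of the 35 members (rows, ordered by role) in each cell that expressed at least 5 of them: 13 knockout-chip cells left of the line and 7 wild-type cells right of it, with the well and the dominant transcript below. The columns D2 and D1 are filled through every role, while the other cells hold mainly Hmmr, Prc1, Ube2c, Bub3 and Birc5.

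The remaining cells with several members held mainly the same few genes, often at low levels but with single members far higher in some cells. Examples were Prc1 at 263 TPM in knockout-chip E3, Kif23 at 223 TPM in knockout-chip E12 and Mad2l1 at 189 TPM in wild-type C9. The next highest knockout-chip cells were H1 with 9 members and G7 with 8. Cdk1 was at 349 TPM in H1, its highest in any cell, beside Birc5 at 101 TPM, Aurkb at 18.2 TPM and Top2a at 8.50 TPM, with no Ccnb1 or Ccna2. G7 held Cdk1 at 129 TPM, Ect2 at 17.2 TPM and Cdca8 at 14.6 TPM, with 0 TPM of Ccnb1 and Ccna2. On the wild-type chip the highest counts were 6 members, in wells B8 and D5. B8 held Mad2l1 at 68.6 TPM and Aurka at 8.98 TPM, and D5 held no member above 7.6 TPM.

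By member, a few genes were found in many cells of both chips. Hmmr, whose protein binds hyaluronan and the spindle, was found in 31 of 61 knockout-chip cells (50.8%, 37.7 to 63.9%) and 28 of 66 wild-type cells (42.4%, 30.3 to 55.2%). Prc1 was found in 31 knockout-chip and 25 wild-type cells, Bub3 in 22 knockout-chip and 14 wild-type cells, Ube2c in 20 knockout-chip and 24 wild-type cells, and Birc5 in 14 knockout-chip and 13 wild-type cells. These 5 genes gave 71.96% of all member detections outside the high cells. Apart from Bub3 they were found at low levels there: of 178 detections of Hmmr, Prc1, Ube2c and Birc5, only 9 reached 10 TPM. Over all members 78.7% of detections outside the pair were below 10 TPM, against 42.2% of the detections of all genes in the same cells.

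Bub3 and Prc1 were the 2 members whose share of cells differed by at least 10 percentage points, both higher on the knockout chip, where 17.3% of the 17743 genes seen were higher by that size and 1.35% lower. Bub3 was found in 36.1% of knockout-chip cells (24.2 to 49.4%) and 21.2% of wild-type cells (12.1 to 33.02%), with overlapping intervals. Counted by sign and with the high pair included, 29 members had a higher share on the knockout chip and 5 a lower share (Ube2c, Cdc20, Aurka, Cdc25c and Cenpf). Kif2c was found on neither chip. No count by sign over all genes was made, so the 29 against 5 is not read as a result about the members. The median kept cell had 3580 detected genes on the knockout chip and 3130.5 on the wild-type chip. The median difference in share was 3.28 points over the members and 1.89 points over all genes seen. Kif11 and Kif23 were each found in 7 of 61 knockout-chip and 1 of 66 wild-type cells, and Cdk1 and Bub1 each in 6 knockout-chip cells and 1 wild-type cell. Top2a was found in 6 knockout-chip and 0 wild-type cells, and Mad2l1 in 7 knockout-chip and 5 wild-type cells. Without the high pair, the knockout-chip counts were 5 for Kif11, Kif23 and Mad2l1, and 4 for Cdk1, Bub1 and Top2a.

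The range of members present was wider on the knockout chip. Of the 35, 32 were found in at least 1 knockout-chip cell and 23 in at least 1 wild-type cell. Without the high pair, 24 were found on the knockout chip. At 10 TPM or more, 31 members were found on the knockout chip, 14 on it without the pair, and 12 on the wild-type chip. On the knockout chip 8 members were found only in the pair, namely Ccna2, Ccnb1, Aurka, Cdca3, Cenpa, Cenpe, Kif4 and Anln.

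Within the states the common members were found as follows. Bub3 was found in 19 of 46 knockout-chip and 11 of 49 wild-type Scgb1a1-dominant cells, and in 3 of 15 knockout-chip and 3 of 17 wild-type Sftpc-dominant cells. Birc5 was found in 10 of 46 knockout-chip and 5 of 49 wild-type Scgb1a1-dominant cells, and in 4 of 15 knockout-chip and 8 of 17 wild-type Sftpc-dominant cells. Hmmr was found in 22 of 46 knockout-chip and 19 of 49 wild-type Scgb1a1-dominant cells, and in 9 of 15 knockout-chip and 9 of 17 wild-type Sftpc-dominant cells. No member's pattern was tested between the states, since all cells of a chip are 1 sample. From the wider list, Spc24, a kinetochore gene, was found in 61 of 61 knockout-chip and 65 of 66 wild-type cells, and Dlgap5, a spindle protein gene, in 52 of 61 knockout-chip and 59 of 66 wild-type cells. Anapc13 was found in 53 knockout-chip and 45 wild-type cells and Anapc11 in 39 knockout-chip and 34 wild-type cells, both encoding subunits of the anaphase-promoting complex. Exon overlap with other genes was checked for the members only. Whether reads of another gene add to the values of Spc24 or Dlgap5 was not tested.

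**Figure D5:**
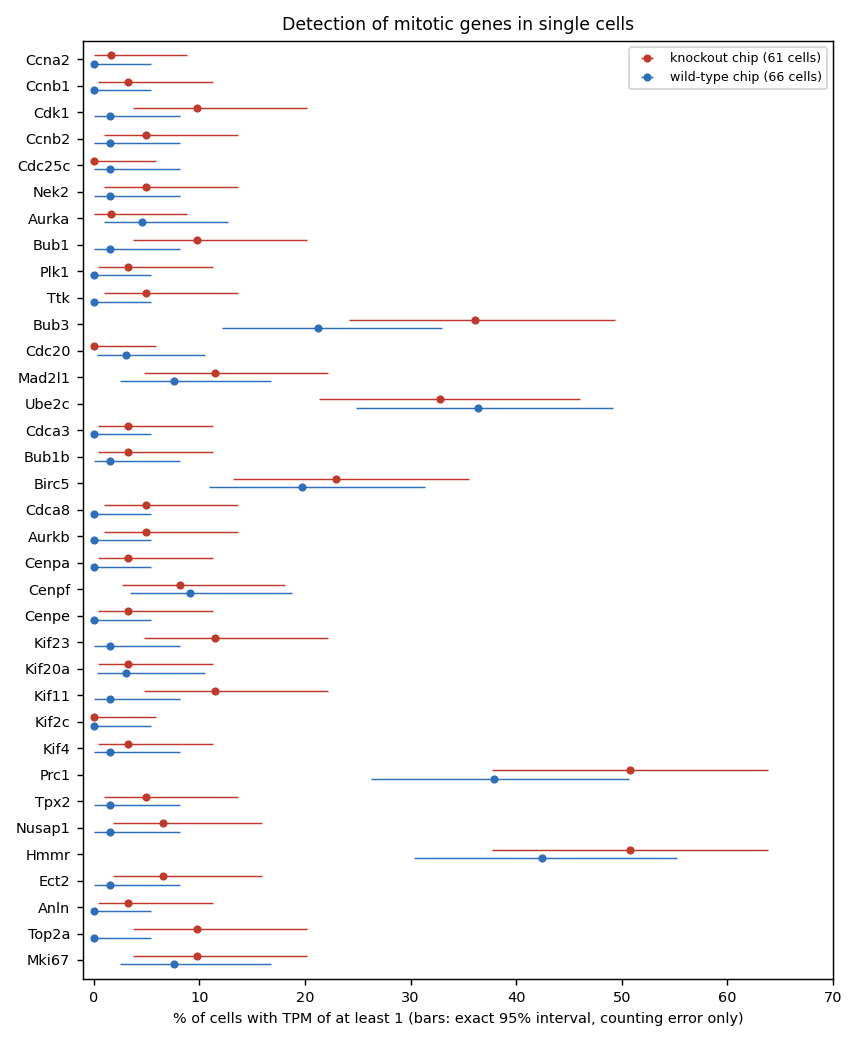
Share of cells with each member at a TPM of at least 1 (horizontal axis, in percent), with the knockout chip in red above the wild-type chip in blue and bars for the exact 95% interval, which covers counting error only. Hmmr, Prc1, Bub3, Ube2c and Birc5 are found in 19.7 to 50.8% of cells on each chip and every other member in at most 11.5%, and the intervals of the chips overlap for all 35 members.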

How the data were processed

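Sorted bulk cells and single cells of mouse lung were analysed from the tables that the authors deposited. Per the submitters' processing notes, bulk FPKM values came from TopHat, Bowtie2 and Cufflinks on mm10, and single-cell TPM values came from RSEM 1.2.20 with Bowtie 1.1.1 on GRCm38, in a separate table for each genotype. The authors' TPM values include 92 spike-in RNAs. Groups came from the genotype and title labels, and for 2 knockout cell samples no column was matched, so they are not analysed here. In bulk, 20 entries in 12 genes carried a mark in place of a value, and these genes were left out. No member was among them.

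Bulk values were fitted as log2(FPKM + 1) with limma 3.58.1 (eBayes with trend and robust, R 4.3.3), two-sided, over the 11957 genes that reached an FPKM of 1 in 3 or more of the 6 libraries. P-values were adjusted by Benjamini-Hochberg, and calls were made below 0.05. The fit was tested on simulated data. Wells whose title remarks on debris or a valve were removed, and of the 64 knockout-chip and 72 wild-type cells left, the 61 and 66 with 1000 or more detected genes (TPM of 1 or higher) were kept. Intervals are exact Clopper-Pearson at 95%. Doublets were removed by eye at capture, per the labels' protocol, and none were called here. Motifs were searched on both strands of RefSeq promoter windows. Computation used Python 3.11.15 with pandas 2.3.3 and SciPy 1.17.1.

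Alternatives were the pseudocount, the filters, library scaling, library weights, leaving out each library, and the TPM needed for detection. The members and gene lists were chosen with earlier results of these data known. Values in every library are given for the most abundant tested member of each role, members without overlap and the 5 of smallest p, with others added as ranges or means. In single cells the members found in most cells and the cells with at least 5 members were described.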

Additional observations from a re-analysis of the deposited data

Results flagged for a closer look

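Wells and controls outside the comparisons also held mitotic transcripts at a TPM of at least 1, above the 0 members of the off-chip negative control. The off-chip positive control of the knockout chip expressed 5 members, namely Bub3 at 10.8 TPM, Mad2l1 at 9.80 TPM, Aurka at 3.40 TPM, Top2a at 1.27 TPM and Ccna2 at 1.26 TPM. On the knockout chip, the wells with a debris or valve remark expressed 1 member (E6, Hmmr at 3.97 TPM), 2 members (F2, Bub3 and Prc1) and 4 members (H7, Bub3, Mad2l1, Prc1 and Ube2c). On the wild-type chip, the remarked well F8 expressed 3 members, with Bub3 at 392.2 TPM. Among wild-type wells left out for few genes, E10 expressed 2 members, with Bub3 at 375 TPM and Cdca3 at 186 TPM among 648 genes, and G7 expressed 1 member (Kif11 at 1.1 TPM).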

How the results depend on the processing

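No paired analysis was possible because the bulk genotypes share no replicate number (7, 8 and 10 against 1, 5 and 6), and the numbers of the single cells are names in accession order. The count of all genes past the limma threshold was 1 in the main setting, 2 with a pseudocount of 0.1, 0 with a pseudocount of 10, 3 without the filter and 913 with library weights, and ranged from 1 to 408 on leaving out each library (408 without wild-type replicate 1). The count of members past the threshold was 0, and 1 with library weights, with a leave-one-out range of 0 to 1. That member was Nek2, at a log2 difference of 1.00 with weights (limma adjusted p = 0.0176) and 1.09 without wild-type replicate 1 (limma adjusted p = 0.0235), within a range of adjusted p from 0.0176 to 0.792 over its alternatives. The count of positive members was 18 of 22, against 30 of 35 without the filter and 10 of 22 with weights, with a leave-one-out range of 12 to 19. The median log2 difference of 0.24 became -0.019 with weights and ranged from 0.026 to 0.33 on leaving out each library. Members wholly higher in knockout ranged from 2 to 5 with 1 library left out (5 without knockout replicate 8), since fewer libraries overlap less easily. Signs turned for Ccna2 (-0.068 with weights, leave-one-out -0.038 to 0.26), Ect2 (-0.10, -0.040 to 0.23), Prc1 (-0.027, -0.0097 to 0.26) and Top2a (-0.012 with weights), and on leaving out a library for Birc5 (-0.072 to 0.56) and Cenpa (-0.0094 to 0.47). The cause was not tested. Wee1 (limma adjusted p = 0.0184) and Plk4 (0.0217) passed with weights.

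In single cells the detection level set the counts. With any TPM above 0 the mean was 7.26 members on the knockout chip and 5.58 members on the wild-type chip. The share of cells with at least 1 member was then 98.4% on the knockout chip and 98.5% on the wild-type chip. At least 5 members were found in 81.97% of the knockout chip and 66.7% of the wild-type chip. At least 10 members were found in 13.1% of the knockout chip and 4.55% of the wild-type chip. At 10 TPM the mean was 1.48 members on the knockout chip (0.644 without the 2 high cells) and 0.379 members on the wild-type chip. The shares with at least 1 member were 40.98% on the knockout chip and 28.8% on the wild-type chip. With at least 5 members they were 4.92% on the knockout chip and 0% on the wild-type chip. Without the 2 high cells, chosen after seeing the data, 0% of knockout-chip cells had at least 10 members. The filter on genes per cell and rescaling without spike-ins moved none of these summaries over all cells beyond the spread. For a mean that spread was the SD over cells. On the knockout chip it was 5.06 members with the 2 high cells and 1.95 without them, so a shift there was hard to flag. Unknown read depth limits low values, so a member below 1 TPM is not shown to be absent.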
